A study of Saccharomyces cerevisiae with 6 samples.

Results

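Methionine is the only amino acid for which the cytosolic tRNAs of budding yeast fall into a pair with separate jobs. The initiator tRNA is carried to the small ribosomal subunit by the factor eIF2 and reads the AUG start codon, while the elongator tRNA is delivered by the elongation factor eEF1A and reads AUG codons inside the coding region. Both are transcribed by RNA polymerase III (pol III) from promoters that lie inside the gene, the A box and the B box. Paf1 and Rtf1 are subunits of the PAF1 complex, which is best known from RNA polymerase II transcription.

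The initiator and the elongator methionine tRNA were chosen by name, as the 2 methionine sequences among the 70 tRNA sequences on which reads were counted. They are listed as TRNA-IMET-CAT-1-1 (initiator) and TRNA-MET-CAT-1-1 (elongator), and both passed the filter on low counts. tRNA-HySeq, in which gel-purified tRNA is cut by mild hydrolysis and fragments of 19 to 35 nt are cloned and sequenced, was carried out on 2 libraries each of *paf1∆* (strain DAS516), *rtf1∆* (strain DAS549) and wild type (strain DAS217) cells, 6 libraries in all. All 3 strains were grown at 30 °C in YEP medium with 2% dextrose and taken in log phase at an A600 of 0.6 to 0.8. In the strain list of the study both deletion strains carry *HIS3* in place of the deleted gene and share the same markers. DAS217 is not in that list, so a difference in strain background cannot be told apart from the deletions. Nothing says whether the replicates were separate cultures, so p-values measure the spread between these libraries, which may be technical. Only tRNAs were counted, so the loss of *PAF1* or *RTF1* mRNA could not be checked.

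The reads aligned to tRNAs numbered from 519302 to 8259323 per library. They were 87.9 and 87.4% of all reads in the *paf1∆* libraries, 5.64 and 6.08% in the *rtf1∆* libraries, and 6.76 and 6.43% in the wild type libraries. The reference sequences are listed as 3 nt longer in the *paf1∆* files, so that the initiator is 75 nt and the elongator 76 nt there, against 72 and 73 nt in the files of the other 4 libraries. No *paf1∆* library was counted on the shorter sequences. In every comparison with *paf1∆* cells the genotype therefore cannot be told apart from the reference used and from the share of reads aligned.

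The sequences of both tRNAs are shown because they set which reads could be counted on each. They were read from the R64 reference (RefSeq), 5′ to 3′, with the CAT anticodon in capitals, at position 33 of the initiator and position 34 of the elongator counted from the first base.
Initiator: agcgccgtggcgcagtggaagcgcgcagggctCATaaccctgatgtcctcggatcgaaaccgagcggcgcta
Elongator: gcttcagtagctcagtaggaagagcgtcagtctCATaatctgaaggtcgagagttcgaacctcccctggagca

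Of the 10 nuclear methionine tRNA genes of R64, 5 hold the initiator sequence and 5 the elongator sequence, each without an intron and with no difference between copies. Their lengths of 72 and 73 nt are the listed lengths in the *rtf1∆* and wild type files. The initiator genes are *IMT4* at chrV:100133-100204 (+ strand), *IMT3* at chrX:517813-517884 (- strand), *IMT1* at chrXV:710201-710272 (+ strand), *IMT2* at chrXVI:338848-338919 (- strand) and YNCC0008W at chrIII:149920-149991 (+ strand), which is annotated to translational initiation but has no *IMT* name. The elongator genes are *EMT1* at chrIV:1175829-1175901 (+ strand), *EMT5* at chrX:391043-391115 (- strand), *EMT3* at chrX:422937-423009 (+ strand), *EMT4* at chrXIII:572883-572955 (- strand) and *EMT2* at chrXV:976421-976493 (+ strand). *EMT3* lies within the annotated open reading frame YJL007C of the opposite strand, and the others overlap no annotated gene. The nearest annotated gene upstream that does not overlap was 468 to 1024 bp away for the initiator genes and 195 to 1652 bp for the elongator genes. Because the 5 copies of each tRNA are identical, these counts do not resolve which gene a read came from.

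Despite the same anticodon, the sequences are far apart. A global alignment gave 49 identical positions of 77 (63.6%), and the longest run they share is the anticodon loop CTCATAA. None of the 54 windows of 19 nt in the initiator and none of the 55 in the elongator occurs in the other methionine tRNA, in any other of the 275 nuclear tRNA genes or elsewhere in the reference. A fragment of the selected size that matches without mismatch therefore fits a single one of the 2 tRNAs. The closest other tRNA was tRNA-Cys for the initiator (65.8% identity) and tRNA-Ile for the elongator (71.6%). The GC content was 65.3% in the initiator and 52.1% in the elongator.

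The initiator also differs from most yeast tRNAs in features for which initiator tRNAs are known. Its first and next-to-last bases, which form the outermost pair of the acceptor stem, are A and T, a pair held by 5 of the 275 nuclear tRNA genes (1.82%), all of them initiator genes. The elongator has the pair G and C, as do 206 of the genes (74.9%). The B box core GTTCGANNC, searched on both strands of the spliced sequences, was found in 200 of the 275 genes (72.7%) and starts at position 53 of the elongator. The initiator does not hold these letters, and has GATCGANNC starting at position 52, which 18 genes (6.55%) hold. In the anticodon stem, the initiator has 3 G and C pairs in a row next to the loop, and the elongator has none at the pair next to the loop. These features describe the sequences and were not related to any count.

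In *paf1∆* cells the initiator tRNA had the smallest or next to smallest count of all 70 sequences, though not the smallest or next to smallest per nucleotide in replicate 2. It had 6842 and 4439 reads in the *paf1∆* libraries, 5894 and 2890 in the *rtf1∆* libraries and 3196 and 5311 in the wild type libraries, in the order of replicates 1 and 2. As a share of the reads aligned to tRNAs this is 0.0828% (95% Wilson confidence interval 0.0809 to 0.0848%) and 0.0561% (0.0545 to 0.0578%) in *paf1∆* cells. In *rtf1∆* cells the share was 0.764% (0.745 to 0.784%) and 0.491% (0.474 to 0.510%), and in wild type cells 0.615% (0.595 to 0.637%) and 0.370% (0.360 to 0.380%). The *paf1∆* shares lay below those of the other 4 libraries, whereas the shares of the *rtf1∆* and wild type libraries overlapped. How many of the 70 sequences had such shares was not counted. After the TMM scaling described below, 34.3% were lower without overlap in *paf1∆* than in wild type libraries, and 40% than in *rtf1∆* libraries. The intervals cover counting error only and are narrower than the spread between replicates. PCR copies of a molecule may be counted as reads of their own, and their part in this spread was not tested. The initiator ranked 70 and 69 of 70 by count in the *paf1∆* libraries, 25 and 30 in the *rtf1∆* libraries, and 38 and 39 in the wild type libraries. Ranked per nucleotide of listed length it was 70 and 60 of 70 in the *paf1∆* libraries, 25 and 27 in the *rtf1∆* libraries, and 34 and 35 in the wild type libraries. On that scale it stood at 0.215 and 0.185 times the median tRNA in the *paf1∆* libraries, 1.95 and 1.59 times in the *rtf1∆* libraries, and 1.17 and 1.02 times in the wild type libraries.

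The elongator tRNA held the largest count of all sequences in both *rtf1∆* and both wild type libraries, and lost this place in *paf1∆* cells. It had 134279 and 358695 reads in the *paf1∆* libraries, 255844 and 229492 in the *rtf1∆* libraries, and 74610 and 258739 in the wild type libraries. The share of aligned reads was 1.63% (1.617 to 1.634%) and 4.54% (4.522 to 4.551%) in *paf1∆* cells. It was 33.2% (33.07 to 33.28%) and 39.0% (38.9 to 39.15%) in *rtf1∆* cells, and 14.4% (14.27 to 14.46%) and 18.0% (17.96 to 18.09%) in wild type cells. Thus the shares of the 3 genotypes did not overlap, with *rtf1∆* highest and *paf1∆* lowest. How many of the 70 sequences did so by share was not counted. After the TMM scaling described below, 34.3% were lower without overlap in *paf1∆* and 30% higher in *rtf1∆* than in wild type libraries. By rank the elongator was 21 and 5 of 70 in the *paf1∆* libraries and 1 in each of the other 4. The sequence with the most reads in both *paf1∆* libraries was tRNA-Arg(UCU), with 19.4 and 20.7% of the aligned reads. Next after the elongator in the *rtf1∆* and wild type libraries was the first listed sequence of tRNA-Asp(GUC). That sequence had 10.3 and 11.9% in *rtf1∆* and 13.2 and 17.1% in wild type cells. Reads on the other listed sequence of tRNA-Asp(GUC) were not added to it, so this is a rank of sequences and not of types. Per nucleotide, the elongator stood at 4.17 and 14.8 times the median tRNA in the *paf1∆* libraries, 83.3 and 124 times in the *rtf1∆* libraries and 27.0 and 49.1 times in the wild type libraries.

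**Figure D1:**
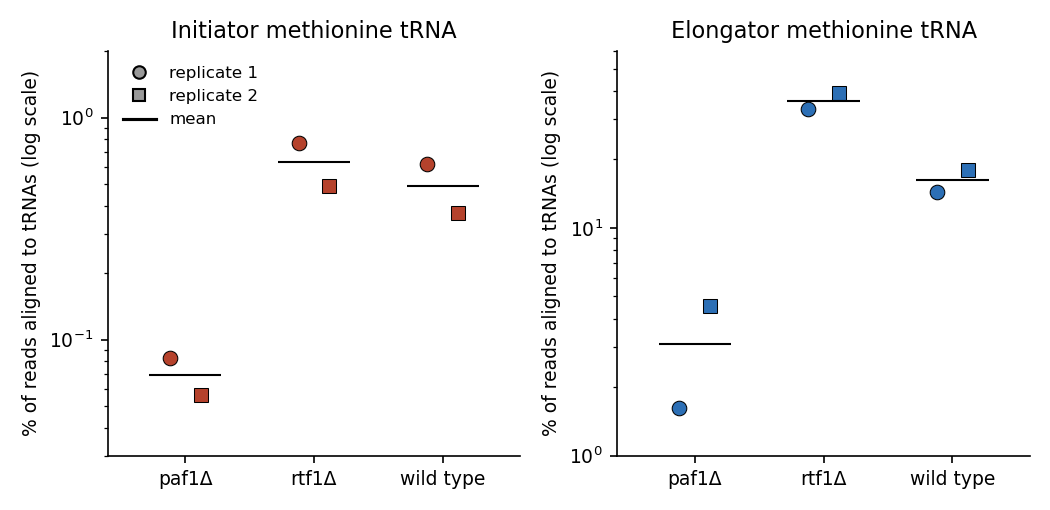
Share of the reads aligned to tRNAs that fell on the initiator (left) and the elongator (right) methionine tRNA, in percent on a log scale, for 2 libraries per genotype (circle, replicate 1; square, replicate 2; line, mean). Both tRNAs are lowest in *paf1∆* cells, with mean shares of 0.0695% for the initiator and 3.08% for the elongator, and in each genotype the library with more initiator has less elongator.

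To ask whether deletion of Paf1 changed the methionine tRNAs relative to the tRNA pool, counts were scaled with edgeR's TMM method to CPM within the 4 libraries and tested with its quasi-likelihood test, with Benjamini-Hochberg adjustment over the 70 sequences. Relative to the pool, the initiator fell in *paf1∆* cells. It had 634 and 750 CPM in the *paf1∆* libraries, against 5143 and 4328 CPM in the wild type libraries, a log2 fold change of -2.77 (standard error, SE, 0.42, edgeR adjusted p = 0.0113). The elongator had 12447 and 60607 CPM in the *paf1∆* libraries, against 120055 and 210864 CPM in the wild type libraries. Its log2 fold change was -2.18 (SE 0.92), which did not pass the test (edgeR adjusted p = 0.169), although its CPM did not overlap between the genotypes either. As background, 10% of the 70 sequences had an adjusted p under 0.05 and were lower, and 34.3% were lower with no overlap of CPM between the libraries. By size of the log2 fold change the initiator was number 8 and the elongator number 12 of the 70. For the initiator the paper reports the other direction by northern blot, normalized to an RNA polymerase II transcript and not to the tRNA pool. Its primary and mature forms were among those with a small but significant increase in both deletion strains. In tRNA-HySeq the paper found the changes in *paf1∆* cells statistically insignificant.

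From *paf1∆* replicate 1 to replicate 2 the elongator rose from 12447 to 60607 CPM, and the initiator from 634 to 750 CPM. This larger step between the *paf1∆* libraries goes with the larger standard error of the elongator. In the plain share of aligned reads the steps were 2.79-fold for the elongator and 1.48-fold for the initiator, which was lower in replicate 2. The initiator call rests on both wild type libraries. Without wild type replicate 1 its log2 fold change was -2.48 (edgeR adjusted p = 0.0575), and without wild type replicate 2 it was -2.89 (edgeR adjusted p = 0.156). The single wild type library left is then taken to vary like the *paf1∆* libraries. The elongator moved most with the choice of *paf1∆* library, with a log2 fold change of -1.36 without *paf1∆* replicate 1 (edgeR adjusted p = 6.85e-08) and of -3.73 without *paf1∆* replicate 2 (edgeR adjusted p = 1.54e-11). In these fits the spread comes from the wild type pair alone, and the step between the *paf1∆* libraries no longer enters the error, so their p-values do not bear on the spread in *paf1∆* cells and are no support for a change.

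In *rtf1∆* cells, tested against the same wild type libraries, neither methionine tRNA passed the test. The initiator had 8057 and 5710 CPM in the *rtf1∆* libraries, against 4673 and 3978 CPM in the wild type libraries, with a log2 fold change of 0.67 (SE 0.32, edgeR adjusted p = 0.165). The elongator had 349735 and 453401 CPM in the *rtf1∆* libraries, against 109093 and 193809 CPM in the wild type libraries, with a log2 fold change of 1.41 (SE 0.51, edgeR adjusted p = 0.0778). In size it was number 1 of the 70 log2 fold changes, and the initiator was number 16. For both tRNAs the *rtf1∆* libraries lay above the wild type libraries in CPM, as did 30% of the 70 sequences, and 5.71% of the 70 had an adjusted p under 0.05 in either direction. Because the elongator takes so large a part of the *rtf1∆* libraries, the share of any other tRNA there depends on it. As a share of the reads that were not on the elongator, the initiator had 1.14 and 0.806% in *rtf1∆* cells and 0.719 and 0.451% in wild type cells. These values do not overlap, unlike the plain shares. Leaving out the elongator raises the share of every other sequence, and more so in *rtf1∆* than in wild type cells. How many of the others also stop overlapping on this scale was not counted. Other processing put the elongator past the threshold in both comparisons with wild type, with adjusted p-values of 0.00337 in *paf1∆* and 0.0461 in *rtf1∆* cells when edgeR was scaled to total aligned counts, and of 0.0290 and 0.0159 by DESeq2.

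By their names, both *rtf1∆* libraries and wild type replicate 2 belong to set 2, and wild type replicate 1 to set 1. Within set 2, that is without wild type replicate 1, the log2 fold change in *rtf1∆* cells was 0.81 for the initiator (edgeR adjusted p = 0.0511) and 1.07 for the elongator (edgeR adjusted p = 0.0564). Without wild type replicate 2, the library with the higher elongator share, the elongator had a log2 fold change of 1.88 (edgeR adjusted p = 0.000104). In both fits 1 wild type library remains, and the p-values rest on the spread of the *rtf1∆* pair alone. No set is named for the *paf1∆* libraries.

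Set directly against each other, the deletion strains differed for the initiator. It had 644 and 679 CPM in the *paf1∆* libraries, against 7510 and 5322 CPM in the *rtf1∆* libraries, a log2 fold change of -3.28 (SE 0.35, edgeR adjusted p = 0.00759). Leaving out each library in turn gave values from -3.51 to -2.98 on the log2 scale. The edgeR adjusted p was 0.0232 without *rtf1∆* replicate 1 and 0.0196 without *rtf1∆* replicate 2, with the spread taken from the *paf1∆* pair, and 1.59e-15 and 1.22e-15 without *paf1∆* replicates 1 and 2, where it rests on the *rtf1∆* pair alone. The elongator had 12633 and 54871 CPM in the *paf1∆* libraries, against 325989 and 422617 CPM in the *rtf1∆* libraries. Its log2 fold change of -3.47 (SE 1.05) was larger in size than that of the initiator but had an adjusted p of 0.0654 by edgeR. In this comparison 11.4% of the 70 sequences had an adjusted p under 0.05 and were lower, and 40% were lower without overlap of CPM. For the elongator the log2 fold change was -2.74 without *paf1∆* replicate 1 (edgeR adjusted p = 0.0262) and -4.89 without *paf1∆* replicate 2 (edgeR adjusted p = 4.23e-07). These p-values use the spread of the *rtf1∆* pair alone and leave out the step between the *paf1∆* libraries, so they are no support for a change either.

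**Figure D2:**
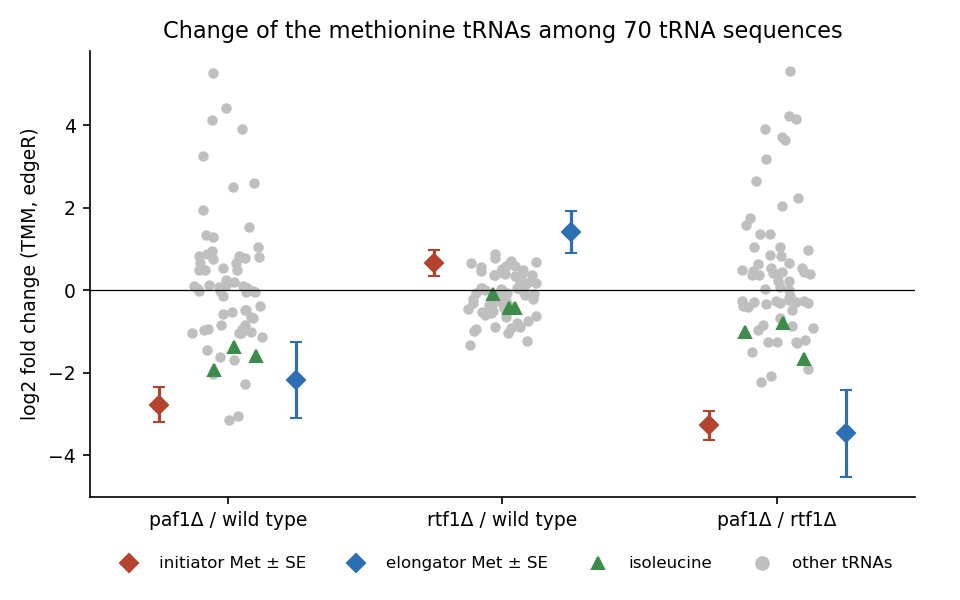
Log2 fold changes (TMM, edgeR) of the 70 tRNA sequences in 3 comparisons, each on 2 against 2 libraries, with the methionine tRNAs as diamonds with their standard errors, isoleucine tRNAs as triangles and all others as grey points. Both diamonds lie low in the comparisons of *paf1∆* with wild type (-2.77 and -2.18) and with *rtf1∆* (-3.28 and -3.47), and the elongator is at the top of the comparison of *rtf1∆* with wild type (1.41).

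The ratio of the elongator to the initiator needs no scaling to the pool, since both counts come from the same library. There were 19.6 (95% Wilson interval 19.15 to 20.11) and 80.8 (78.45 to 83.23) elongator reads per initiator read in the *paf1∆* libraries. The *rtf1∆* libraries had 43.4 (42.3 to 44.54) and 79.4 (76.55 to 82.38), and the wild type libraries 23.3 (22.53 to 24.19) and 48.7 (47.41 to 50.06). The *paf1∆* libraries hold both the lowest and the highest of the 6 ratios, and the ranges of all 3 genotypes overlap. Per nucleotide of listed length the ratios were 19.4 and 79.7 in *paf1∆*, 42.8 and 78.3 in *rtf1∆*, and 23.0 and 48.1 in wild type cells. In other words, more reads fell on the elongator than on the initiator in every library. The replicates of a genotype differed 4.12-fold in *paf1∆*, 1.83-fold in *rtf1∆* and 2.09-fold in wild type cells. How well each tRNA is recovered as reads was not measured, so these are ratios of reads and not of molecules in the cell. In each genotype the library with the higher initiator share had the lower elongator share, and this was the library labelled replicate 1. For *rtf1∆* the sample labels and the names of the deposited libraries number the replicates in opposite order, and the labels were followed.

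No change of the ratio was detected. The log2 of the initiator over the elongator count averaged -5.32 ± 1.44 in *paf1∆*, -5.88 ± 0.62 in *rtf1∆* and -5.08 ± 0.75 in wild type cells (SD, n = 2 each). The difference was -0.24 for *paf1∆* minus wild type (exact permutation p = 1), -0.80 for *rtf1∆* minus wild type (exact permutation p = 0.667) and 0.56 for *paf1∆* minus *rtf1∆* (exact permutation p = 1), two-sided. With 2 libraries against 2 this exact permutation test cannot go below p = 0.33. The sign of the *paf1∆* values depends on single libraries. In the edgeR fit relative to the elongator, leaving out 1 library gave log2 fold changes from -1.36 to 0.69 for *paf1∆* against wild type and from -0.53 to 1.52 for *paf1∆* against *rtf1∆* cells. Non-overlapping ratios were found for 69.1% of all 903 pairs of the 43 anticodon types between *paf1∆* and wild type cells, for 55.6% between *rtf1∆* and wild type cells and for 82.4% between *paf1∆* and *rtf1∆* cells, and the methionine pair was in none of these.

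A fit in edgeR with the elongator count as the scale, so that each fold change is relative to the elongator, tests the initiator beside 68 other sequences. For the initiator in *paf1∆* against wild type cells it gave a log2 fold change of -0.00075 (SE 1.51, edgeR adjusted p = 1.00), where 15.9% of the 69 sequences were called. In *rtf1∆* against wild type cells the initiator had -0.83 (SE 0.70, edgeR adjusted p = 0.25), where 42 sequences (60.9%) were lower relative to the elongator with an adjusted p under 0.05. In *paf1∆* against *rtf1∆* cells it had 0.83 (SE 1.29, edgeR adjusted p = 0.520), where 64 sequences (92.8%) were called, all of them higher. In both comparisons with *paf1∆* the initiator had the largest p of the 69 sequences. All 69 values share the elongator count and its replicate error, and in the comparisons with *paf1∆* the SE is above 1 on the log2 scale, so that a 2-fold change of the ratio lies within 1 SE.

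**Figure D3:**
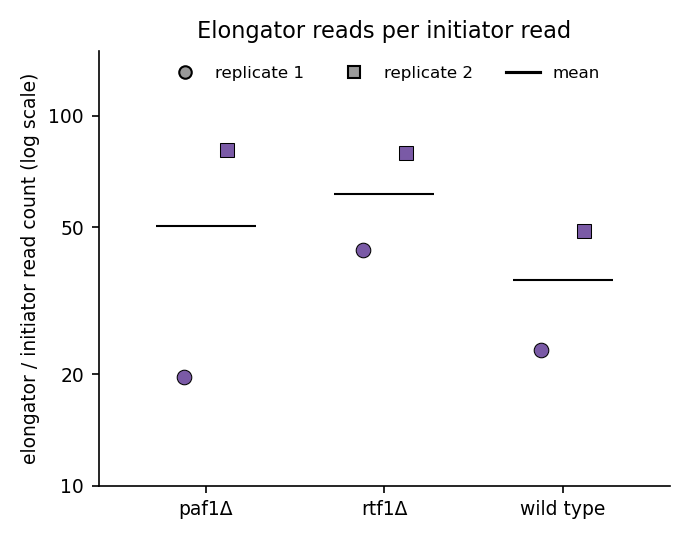
Elongator reads per initiator read (ratio of counts, log scale) in the 2 libraries of each genotype (circle, replicate 1; square, replicate 2; line, mean). The *paf1∆* libraries, at 19.6 and 80.8, span the values of all other libraries.

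The direction of the *paf1∆* result depends on what the reads are set against. Reads aligned to no tRNA made up 12.1 and 12.6% of the *paf1∆* libraries, 94.4 and 93.9% of the *rtf1∆* libraries, and 93.2 and 93.6% of the wild type libraries. As a share of all reads, aligned or not, the initiator had 0.0728 and 0.0491% in *paf1∆*, 0.0431 and 0.0299% in *rtf1∆*, and 0.0416 and 0.0238% in wild type cells. The elongator had 1.43 and 3.97% of all reads in *paf1∆*, 1.87 and 2.37% in *rtf1∆*, and 0.972 and 1.16% in wild type cells. On this scale the *paf1∆* libraries lay above the wild type libraries for both tRNAs. With all reads as the library size in edgeR, a scaling chosen after the data were seen, the log2 fold change in *paf1∆* against wild type cells was 0.90 for the initiator (edgeR adjusted p = 0.284) and 1.34 for the elongator (edgeR adjusted p = 0.0377). The median over the 70 sequences was then 3.72, against -0.01 with TMM, and relative to that median both methionine tRNAs remained low. In *paf1∆* against *rtf1∆* cells the values were 0.74 for the initiator and 0.35 for the elongator, with a median of 3.98. The change of sign is thus a shift of all the sequences by the scaling and not particular to the methionine tRNAs. For *rtf1∆* against wild type cells, where the aligned shares are close, the elongator had a log2 fold change of 1.00 on this scale (edgeR adjusted p = 9.12e-05) with a median of -0.56 over the 70 sequences. What the reads aligned to no tRNA are was not analysed here.

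**Figure D4:**
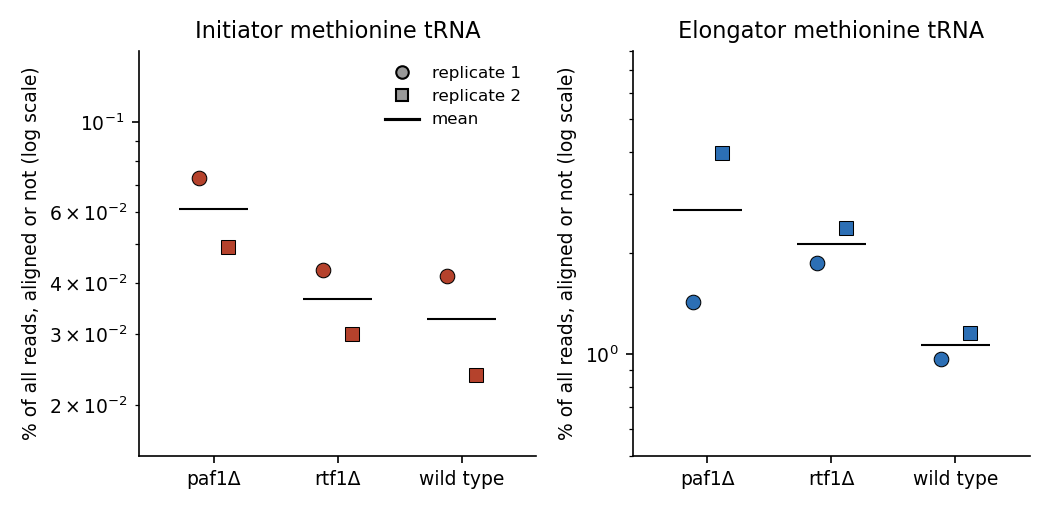
Share of all reads, whether aligned to a tRNA or not, that fell on the initiator (left) and the elongator (right), in percent on a log scale (circle, replicate 1; square, replicate 2; line, mean). Set against all reads, both tRNAs are higher in the *paf1∆* than in the wild type libraries, with means of 0.0609% against 0.0327% for the initiator and 2.70% against 1.07% for the elongator.

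Isoleucine tRNAs read the other codons that begin with AU and are the neighbours of methionine in the codon table. The files list 3 isoleucine sequences, and 2 of them fell in *paf1∆* against wild type cells, where 10% of all sequences were called lower. tRNA-Ile(AAU) had a log2 fold change of -1.93 (edgeR adjusted p = 0.0400) and the first sequence of tRNA-Ile(UAU) of -1.61 (edgeR adjusted p = 0.0498). The second sequence of tRNA-Ile(UAU) had -1.37 (edgeR adjusted p = 0.0732). The tRNA-Ile(UAU) sequences may share reads, which was not measured, and are therefore not counted as separate decreases. In *rtf1∆* against wild type cells tRNA-Ile(AAU) had a log2 fold change of -0.08 (edgeR adjusted p = 0.926), the first sequence of tRNA-Ile(UAU) -0.44 (0.336) and the second -0.42 (0.363). In *paf1∆* against *rtf1∆* cells tRNA-Ile(AAU) fell by 1.68 on the log2 scale (edgeR adjusted p = 0.0118), where 11.4% of all sequences were called lower. The tRNA-Ile(UAU) sequences had log2 fold changes of -1.01 (edgeR adjusted p = 0.0677) and -0.79 (edgeR adjusted p = 0.119), which did not pass the test.

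Across the 6 libraries, CPM after TMM scaling of all 6 together gave a Pearson's r of 0.890 between the log2 levels of the initiator and the elongator. Among the 41 other anticodon types, each with its best sequence, those most like the initiator were tRNA-Cys(GCA) (r = 0.980), tRNA-Ile(AAU) (r = 0.967) and tRNA-Gly(GCC) (r = 0.907). Those most like the elongator were the fifth listed sequence of tRNA-Phe(GAA) (r = 0.946), tRNA-Pro(AGG) (r = 0.906) and tRNA-Cys(GCA) (r = 0.848). The type least like the initiator was tRNA-Ser(CGA) (r = -0.942), and that least like the elongator was tRNA-Asn(GUU) (r = -0.976). These correlations are descriptions over 6 libraries in 3 groups, and the *paf1∆* libraries stand apart in most of them. For tRNA-Cys(GCA), the *paf1∆* libraries had 10760 and 10573 CPM, against 29669 and 30320 CPM in the *rtf1∆* libraries and 30697 and 27297 CPM in those of wild type cells. It was thus close in *rtf1∆* and wild type cells, where the elongator was not.

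**Figure D5:**
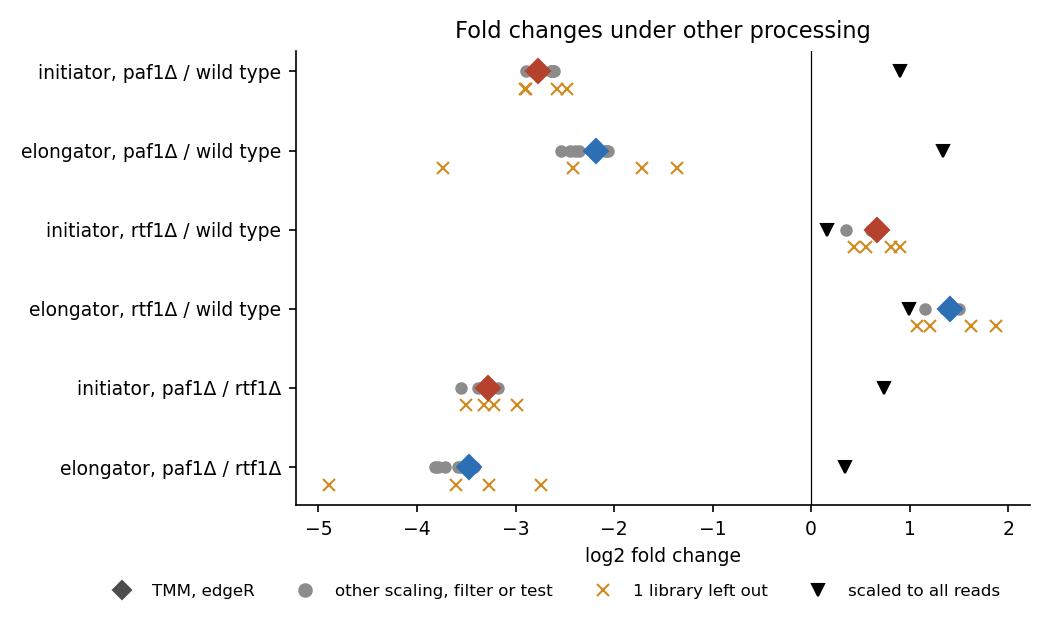
Log2 fold changes of both methionine tRNAs in 3 comparisons under TMM in edgeR (diamonds), under other scalings, filters and tests (circles), with 1 library left out (crosses) and scaled to all reads (triangles). The circles and crosses keep the side of 0 of their diamond, and the triangles lie on the other side in the 4 values that involve *paf1∆*.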

How the data were processed

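tRNA-HySeq libraries of *paf1∆*, *rtf1∆* and wild type yeast, 2 of each, were grouped and numbered from the sample labels. Adapters were clipped and reads trimmed by the authors on the Galaxy platform, and reads were aligned to unique yeast tRNA sequences. The labels' processing notes name Bowtie and SAMtools, and their versions and the placement of reads that fit several sequences are not given in the sources used here. The deposited values are raw counts that the authors took from IdxStats for each tRNA sequence, not normalized, beside the length of the sequence and the number of unaligned reads. A floor of 3 counts is 0.000578% or less of the aligned reads of a library.

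The 4 libraries of a comparison were fitted without the others in edgeR 4.0.16 in R 4.3.3 (TMM, quasi-likelihood test, two-sided, Benjamini-Hochberg adjustment at 0.05) over sequences with at least 10 counts in at least 2 libraries, which kept all 70 sequences and both methionine tRNAs. Standard errors were derived from the log2 fold change and the F value of the test. The ratio of the methionine tRNAs was tested with the log of the elongator count as offset, and by exact permutation. Alternatives were other scalings, DESeq2 1.42.0, limma 3.58.1, other filters, all 6 libraries in one fit, sums by anticodon, a pseudocount of 0.5, the replicate number as a block, and fits with 1 library fewer. The text names the methionine and isoleucine tRNAs, the 3 types most like each methionine tRNA over the 6 libraries, and the sequence with the most counts, and the least like types, tRNA-Asp(GUC) and the levels of tRNA-Cys(GCA) were added after their values were seen. The members and lists were chosen with earlier results of these data known. The fits were also run on simulated data with known changes, and the outcome is not given here or used in the text.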

Additional observations from a re-analysis of the deposited data

Results flagged for a closer look

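The initiator tRNA differed between the deletion strains, with lower CPM in *paf1∆* than in *rtf1∆* cells in all 4 pairs of libraries. Its log2 fold change was -3.28 for *paf1∆* against *rtf1∆* cells (adjusted p = 0.00759 by edgeR's quasi-likelihood test). In CPM the elongator moved opposite ways, lower in both *paf1∆* and higher in both *rtf1∆* libraries than in both wild type libraries. The initiator did the same, so this pattern is not particular to the elongator. So did tRNA-Pro(AGG) and the tRNA-Phe(GAA) sequences listed as TRNA-PHE-GAA-2-1, TRNA-PHE-GAA-2-2 and TRNA-PHE-GAA-2-6. The share of the 70 sequences that moved both ways was not counted. Of the 70 sequences, 34.3% were lower without overlap in *paf1∆* and 30% higher without overlap in *rtf1∆* cells. For the elongator the direct difference of -3.47 between *paf1∆* and *rtf1∆* cells did not pass the test (adjusted p = 0.0654 by edgeR). The *paf1∆* libraries were counted on the longer reference sequences and had a far larger share of reads aligned to tRNAs. Neither can be told apart from the genotype, and their part in either difference was not tested.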

How the results depend on the processing

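Over 10 alternatives, other than leaving out a library and scaling to all reads, the log2 fold change of the initiator stayed between -2.90 and -2.61 in *paf1∆* against wild type, between 0.35 and 0.67 in *rtf1∆* against wild type and between -3.55 and -3.18 in *paf1∆* against *rtf1∆* cells, and none of them changed its call. The elongator crossed the threshold under several. In *paf1∆* against wild type it had -2.39 with total counts (adjusted p = 0.00337), -2.36 with upper-quartile scaling (0.0189) and -2.08 by DESeq2 (0.0290), within a range of adjusted p from 0.00337 to 0.170. In *rtf1∆* against wild type it had 1.16 with total counts, 1.36 by DESeq2 and 1.41 with at least 100 counts in every library (adjusted p from 0.0159 to 0.365 over the alternatives), and 1.00 scaled to all reads. In *paf1∆* against *rtf1∆* it had -3.50 with DESeq size factors and by DESeq2, -3.55 with total counts, -3.78 with upper-quartile scaling, -3.72 by limma-voom and -3.47 with all 6 libraries in one fit (adjusted p from 0.000534 to 0.157). Scaled to all reads, the 4 values with *paf1∆* turned to 0.90 and 0.74 for the initiator and 1.34 and 0.35 for the elongator, against wild type and *rtf1∆* in this order. The medians over the 70 sequences were then 3.72 and 3.98, so that this scaling moves all sequences and not the methionine tRNAs in particular. Why the calls change was not tested.

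When 1 library at a time was left out, the values in *paf1∆* against wild type ranged from -2.90 to -2.48 for the initiator, from -3.73 to -1.36 for the elongator and from -1.36 to 0.69 for their ratio, which changed sign. In *rtf1∆* against wild type it ranged from 0.43 to 0.90, from 1.07 to 1.88 and from -1.33 to -0.20, and in *paf1∆* against *rtf1∆* from -3.51 to -2.98, from -4.89 to -2.74 and from -0.53 to 1.52. Without wild type replicate 2 the ratio in *rtf1∆* against wild type was -1.27 (adjusted p = 0.0361 by edgeR), and without *paf1∆* replicate 2 that in *paf1∆* against *rtf1∆* was 1.52 (adjusted p = 0.00221), and without *paf1∆* replicate 1 it was -0.53. Each fit with 1 library fewer takes the spread from the genotype that keeps both libraries, so these p-values hold none of the spread between the replicates of the other, and the calls gained in this way are no support for a change.

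With the replicate number as a block the initiator had -2.77 in *paf1∆* against wild type (adjusted p = 0.000961 by edgeR) and the elongator -2.53 (0.148), and no call changed in any comparison. Deviations of same-numbered libraries correlated with r = 0.0999, 0.253 and 0.0115 in *paf1∆* against wild type, *rtf1∆* against wild type and *paf1∆* against *rtf1∆*, and nothing in the labels says that a number marks a shared batch.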

Other observations

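The ratio of the methionine tRNAs differed between replicates by 2.04 on the log2 scale in *paf1∆*, 0.87 in *rtf1∆* and 1.06 in wild type cells. Among the 903 pairs of anticodon types the median replicate difference was 0.93 in *paf1∆*, 0.26 in *rtf1∆* and 0.72 in wild type cells, and 81.5%, 97.7% and 66.2% of pairs differed by less than the methionine pair.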
